A study of Mus musculus with 9 samples.

Results

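The 10 genes described here are markers and regulators of muscle stem cells. They are Pax7, Pax3 and Msc, which encode transcription factors, Cdh15, Vcam1, Sdc4 and Cd34, which encode adhesion molecules and other proteins of the cell surface, Cxcr4 and Calcr, which encode receptors, and Spry1, which encodes an intracellular inhibitor of growth factor signalling. They were matched by symbol to Ensembl identifiers, and all 10 were found among the 46078 genes listed for cultured cells and among the 38293 genes listed for muscle. RNA was sequenced from mouse gastrocnemius muscle (GAS, 3 libraries), primary myoblasts (MB, 2 libraries), primary myotubes differentiated from MB (MT, 2 libraries) and MB given lactate (2 libraries), all of strain C57BL/6. GAS came from female mice aged 8 to 12 weeks, as a whole tissue with no sorting of cells. MB were grown on Matrigel with 10% horse serum, 20% FBS and 10 ng/ml bFGF, and MT were obtained by moving MB at 80% confluency to 2% horse serum for 3 days. Treated MB received 10 mM sodium-L-lactate, and the control MB and the MT received the PBS vehicle. The labels call the libraries biological replicates without saying whether those of cultured cells came from separate animals or cultures, so the p-values below measure the spread between these libraries, which may be technical.

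Satellite cells are the stem cells of skeletal muscle and lie between a muscle fiber and the basal lamina around it. They rest in quiescence, enter the cell cycle on injury, divide as myoblasts and then either fuse into multinucleated fibers or return to quiescence. PAX7 marks them in adult muscle, the closely related PAX3 marks muscle progenitors of the embryo and a subset of adult satellite cells, and the surface proteins hold the cell in its niche and serve to sort it.

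The depth was 19307793 to 19941574 counted reads in a GAS library and 5198247 to 10839516 in a library of cultured cells. Levels are given as CPM, which scale each library to the same total, with TMM normalization set separately for GAS and for cultured cells, and, where genes are compared with each other, as CPM per kilobase of exon (RPKM). A count of 3 stood for 0.223 to 0.533 CPM in the cultured libraries and for 0.152 to 0.156 CPM in GAS. The cultured libraries matched their labels by markers of differentiation and of the cell cycle. All 10 differentiation genes were higher in MT than in MB, among them Myog, a transcription factor of differentiation (log2FC 3.81, adjusted p = 0.00276), and Ckm, muscle creatine kinase (log2FC 7.24, adjusted p = 0.000275). Of 7 proliferation genes, 6 were lower in MT, among them Top2a (log2FC -1.80, adjusted p = 0.0416), while Mki67 was not called (log2FC -1.36, adjusted p = 0.143), and without MT replicate 1 the number lower was 3. MT replicate 1 stood apart, with 28599 genes detected against 15548 to 18156 in the other libraries, and 8918 genes were counted in it alone among the cultured libraries. MB replicate 1 and lactate-treated MB replicate 1 carried 9.20% and 13.8% of their counts on 1 ribosomal RNA gene, against 0.131% to 0.575% in the other cultured libraries.

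**Figure D1:**
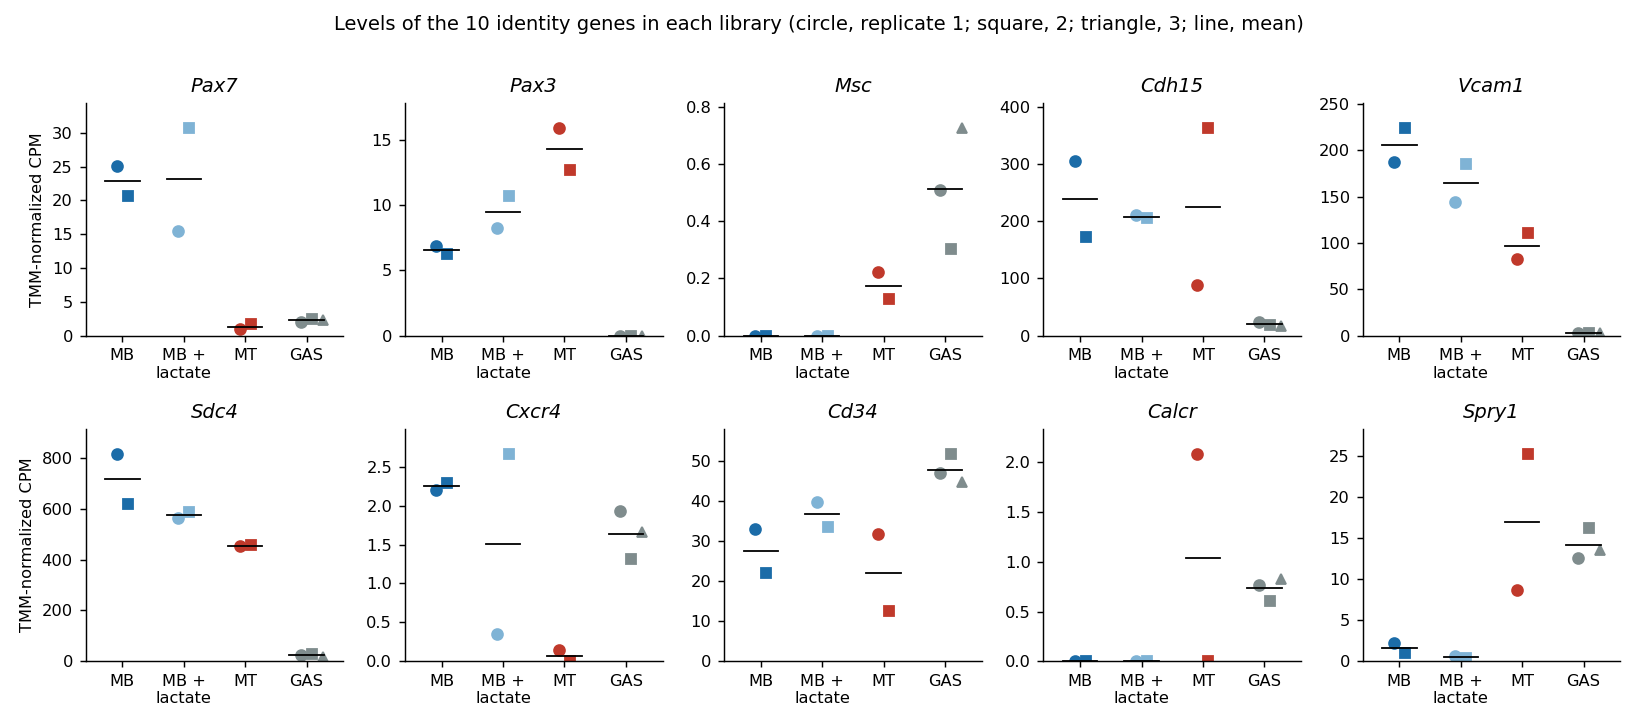
Level of each of the 10 identity genes in every library, as TMM-normalized CPM on linear axes that start at 0. Points are libraries and lines are group means. Pax7 lay between 1.04 and 1.65 CPM in MT and between 15.5 and 30.8 CPM in the 4 MB libraries with and without lactate, and Pax3 was at 0 counts in GAS.

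The first comparison, MT against MB, asks how the identity genes changed when myoblasts differentiated. Pax7 and Cxcr4, the receptor of the chemokine CXCL12, were lower in MT, and Spry1 was higher. The other tested members, Pax3, Cdh15, Vcam1, Sdc4 and Cd34, did not pass the test, and Msc and Calcr were too low to be tested. A gene was called with an adjusted p under 0.05 in edgeR's quasi-likelihood test and an absolute log2FC over 0.5. The share of all genes whose groups did not overlap was not counted, so no overlap alone is not read as a difference below. Of all 12921 genes tested, 11.0% were called higher, 6.86% lower and 17.9% in either direction, and of the 8 members tested 1 was higher and 2 were lower. The median log2FC of these 8 members was -0.48, and that of all genes tested was 0.07, with a 10th percentile of -1.55 and a 90th percentile of 2.45.

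**Figure D2:**
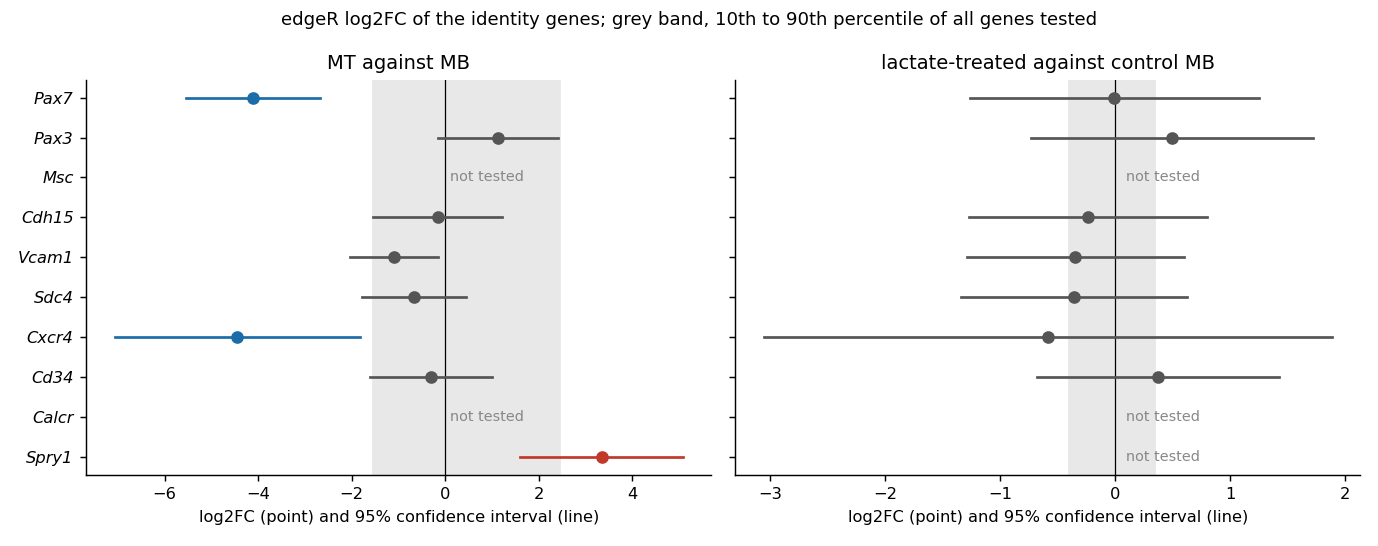
edgeR log2FC (points) with its 95% confidence interval (lines) for each identity gene, in MT against MB on the left and in lactate-treated against control MB on the right. Blue marks lower, red higher and dark grey not called, and the grey band spans the 10th to 90th percentile of all genes tested. Pax7, Cxcr4 and Spry1 had intervals away from 0 on the left and were called, the interval of Vcam1 also lay below 0 with no call, and each interval on the right included 0.

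Pax7 (ENSMUSG00000028736, chr4:139737062-139833528 on the minus strand of GRCm38) encodes the paired-box factor by which adult satellite cells are recognised. It had 205 and 171 counts in the MB libraries and 14 and 13 in the MT libraries, or 25.1 and 20.6 CPM against 1.04 and 1.65 CPM. Both MT libraries lay below both MB libraries. The log2FC was -4.11 with an SE of 0.65 and a 95% confidence interval from -5.54 to -2.68 (adjusted p = 0.00224), a level 17.3-fold lower in MT. The 13 and 14 counts were still above the limit of 3 counts in each MT library. In MT replicate 1 the 14 counts were 2.39 per kilobase. The 3854 protein-coding genes counted in that cultured library alone had a median of 3.23, so these 14 counts did not stand above its background.

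Pax3 (ENSMUSG00000004872, chr1:78101267-78197134, minus strand), the paralog of Pax7, had higher values in MT. It had 56 and 52 counts in MB and 214 and 100 in MT, or 6.86 and 6.27 CPM against 15.9 and 12.7 CPM. The groups did not overlap, and MT was on the high side, but the log2FC of 1.13 ± 0.58 (SE) did not pass the test (adjusted p = 0.204). In RPKM, which allows the paralogs to be set against each other, Pax7 stood at 3.86 and 3.47 times the level of Pax3 in the MB libraries and at 1.98 and 3.04 times in lactate-treated MB. In the MT libraries the order was turned, with Pax3 at 14.5 and 7.29 times the level of Pax7. The ratio of the paralogs in each MT library therefore lay outside the range of the 4 MB libraries. The 14.5, from MT replicate 1, is a rough value, since the 14 Pax7 counts there did not stand above the background of that library. This turn of order rested on the fall of Pax7, which passed the test, and on the difference of Pax3, which did not.

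**Figure D3:**
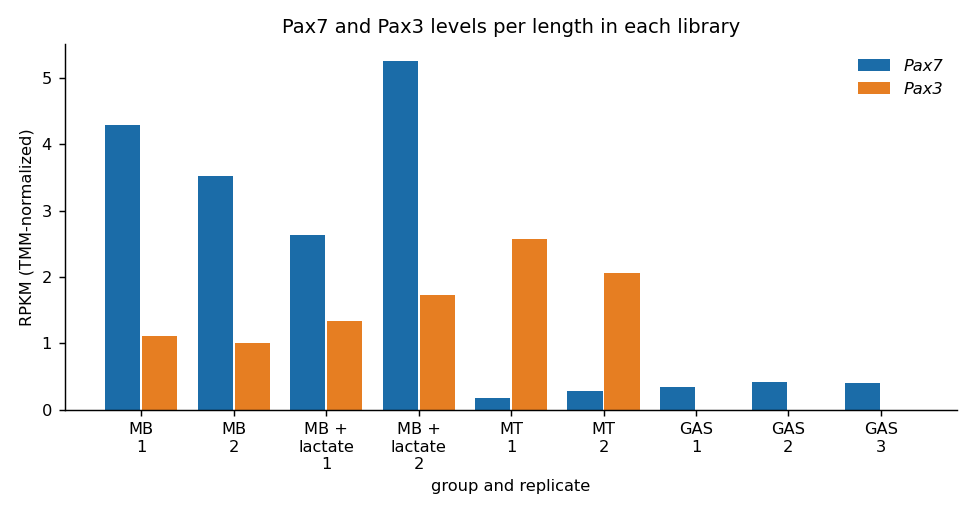
Pax7 (blue) and Pax3 (orange) levels in RPKM for each library, on a linear axis that starts at 0. The Pax7 bar was the taller of the pair in each MB library and the shorter in both MT libraries, where it reached 0.178 and 0.282 RPKM, and GAS had no Pax3 count.

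Msc (ENSMUSG00000025930, chr1:14753346-14755992, minus strand) encodes musculin, also called MyoR, a basic helix-loop-helix repressor that competes with MYOD1 for its sites. It had no counts in the 4 MB libraries and 3 and 1 counts in MT, so that every cultured library lay at or under the limit of 3 counts and no fold is given. The antisense gene Gm9947 overlaps Msc over its whole length of 2647 bases and had 7 counts in MT replicate 1. Without a stated strand setting the reads of this pair cannot be told apart. Gene models on the opposite strand overlap Vcam1, Cd34 and Spry1 too, and these had at most 8 counts in a cultured library.

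Cxcr4 (ENSMUSG00000045382, chr1:128588199-128592293, minus strand), through which satellite cells and myoblasts migrate towards CXCL12, had 18 and 19 counts in the MB libraries and 2 and 0 in MT. In CPM these were 2.21 and 2.29 against 0.149 and 0. Both MT libraries were under the limit of 3 counts. The MB mean was 7.43-fold above the mean of that limit over the MT libraries. That fold leaves out the spread between libraries, and the interval given next allows a smaller one. The fitted log2FC was -4.44 with a 95% confidence interval from -7.07 to -1.82 (adjusted p = 0.0268), and it depends on the prior count. The call was lost when any one of the 4 libraries was left out, with adjusted p from 0.0682 to 0.749, and without the filter on low counts (adjusted p = 0.552). At this depth Cxcr4 was the member with the highest SE among the 8 tested, 1.19 on the log2 scale.

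Spry1 (ENSMUSG00000037211, chr3:37639947-37644598, plus strand) encodes Sprouty1, an inhibitor of receptor tyrosine kinase signalling that acts on FGF signalling and that is known for its part in the return of satellite cells to quiescence. It had 18 and 8 counts in MB and 117 and 199 in MT, or 2.21 and 0.964 CPM against 8.71 and 25.3 CPM. Both MT libraries were above both MB libraries, and the higher MT library was that of replicate 2. The log2FC was 3.35 with a 95% confidence interval from 1.61 to 5.09 (adjusted p = 0.0154), or a level 10.2-fold higher. Without MT replicate 2 the log2FC was 2.33 and the adjusted p rose to 0.0810, and the call was kept when any other library was left out, with a log2FC of 4.06 without MB replicate 1. The growth medium of MB held bFGF and the differentiation medium did not, so differentiation and FGF in the medium cannot be told apart in this comparison.

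The RefSeq promoter table (GRCm38.p6) held 7 of the 10 members, not Pax3, Vcam1 and Msc. The 250 bases before the RefSeq start site are printed for the 3 called members and for Cdh15. They show where these windows hold an E-box, the letters CANNTG that basic helix-loop-helix factors such as MYOD1, MYOG and musculin recognise. Cdh15 was not called and had the most E-boxes among the 7. Of the printed windows, those of Pax7 and Cdh15 lie inside the gene spans given here, so they are not upstream of the whole gene model. Capitals mark each E-box, and since the motif is its own reverse complement both strands are covered.
Pax7, chr4:139832969-139833218, minus strand: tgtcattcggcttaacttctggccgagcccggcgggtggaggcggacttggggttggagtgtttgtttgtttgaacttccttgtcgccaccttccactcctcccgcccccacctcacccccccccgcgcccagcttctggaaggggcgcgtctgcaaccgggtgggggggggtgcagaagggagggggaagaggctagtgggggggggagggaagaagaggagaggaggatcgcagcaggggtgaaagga
Cxcr4, chr1:128592300-128592549, minus strand: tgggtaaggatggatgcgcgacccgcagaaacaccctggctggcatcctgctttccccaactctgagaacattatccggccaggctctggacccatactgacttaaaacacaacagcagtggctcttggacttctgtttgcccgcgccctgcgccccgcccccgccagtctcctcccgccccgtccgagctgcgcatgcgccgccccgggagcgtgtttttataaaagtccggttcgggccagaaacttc
Spry1, chr3:37639697-37639946, plus strand: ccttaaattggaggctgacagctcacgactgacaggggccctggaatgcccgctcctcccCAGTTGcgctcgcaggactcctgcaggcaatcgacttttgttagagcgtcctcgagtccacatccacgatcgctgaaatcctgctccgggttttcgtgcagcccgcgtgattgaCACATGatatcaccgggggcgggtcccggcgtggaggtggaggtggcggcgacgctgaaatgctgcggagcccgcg
Cdh15, chr8:122848124-122848373, plus strand: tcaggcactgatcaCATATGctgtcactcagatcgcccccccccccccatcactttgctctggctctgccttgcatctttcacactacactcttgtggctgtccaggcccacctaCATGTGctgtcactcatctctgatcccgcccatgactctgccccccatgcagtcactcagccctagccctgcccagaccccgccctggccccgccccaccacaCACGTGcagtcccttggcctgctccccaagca

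The Pax7 and Cxcr4 windows, whose genes were lower in MT, held no E-box. The window of Spry1, which was higher in MT, held 2, and that of Cdh15 held 3. The windows of Sdc4 and Cd34 held none, and of the 2 start sites listed for Calcr 1 window held 1 E-box. Of the 32851 mouse promoters in the table, 66.2% held at least 1 E-box in this window, with a median of 1, and 12.2% held 3 or more. The E-box CAGCTG, a form that is included in CANNTG, was in none of the members' windows and in 13.0% of all promoters. TGGGAA, the core at which the Notch effector RBPJ binds, was searched on both strands and was in none of the members' windows and in 21.6% of all promoters. These counts describe letters in a window and were not tested against the expression values.

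The surface protein genes Sdc4, Cdh15 and Vcam1 were the 3 most abundant members per length in MB and in MT. Sdc4 (ENSMUSG00000017009, chr2:164424247-164443887, minus strand), encoding the heparan sulfate proteoglycan syndecan-4, had 6661 and 5146 counts in MB and 6087 and 3586 in MT. Its level was 816 and 620 CPM in MB and 453 and 456 CPM in MT, with no overlap of the groups and MT on the low side. The log2FC of -0.67 ± 0.50 (SE) did not pass the test (adjusted p = 0.386). Per length, Sdc4 stood first among the members in each cultured group, at 282 ± 54.4 RPKM (SD, n = 2) in MB and 178 ± 0.788 RPKM (SD, n = 2) in MT.

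Cdh15 (ENSMUSG00000031962, chr8:122847966-122867397, plus strand) encodes M-cadherin, through which satellite cells adhere to the fiber and myoblasts to each other before fusion. It had 2492 and 1435 counts in MB and 1180 and 2853 in MT, or 305 and 173 CPM against 87.9 and 363 CPM. The MT libraries lay on either side of both MB libraries, with replicate 1 low and replicate 2 high. The log2FC was -0.16 with a 95% confidence interval from -1.53 to 1.22 (adjusted p = 0.891). It was 0.51 without MT replicate 1, 0.32 without MB replicate 1, -1.57 without MT replicate 2 and -0.61 without MB replicate 2, so its sign depended on which libraries were used. The protein-coding gene model Gm20388 spans the Cdh15 locus on the same strand and was at 0 counts in all 6 cultured libraries.

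Vcam1 (ENSMUSG00000027962, chr3:116109949-116129688, minus strand), an immunoglobulin-family receptor bound by the integrin of ITGA4 and ITGB1, had 1525 and 1861 counts in MB and 1107 and 874 in MT. In CPM these were 187 and 224 against 82.4 and 111. MT was lower with no overlap, and the log2FC of -1.09 had a 95% confidence interval from -2.02 to -0.16. The unadjusted p was 0.0262 and the adjusted p 0.101, so Vcam1 was not called.

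Cd34 (ENSMUSG00000016494, chr1:194938819-194961279, plus strand) encodes a sialomucin of quiescent satellite cells that endothelial and blood progenitor cells also carry. It had 269 and 183 counts in MB and 427 and 98 in MT, or 33.0 and 22.1 CPM against 31.8 and 12.5 CPM. The groups overlapped, since MT replicate 1 lay between the MB libraries and MT replicate 2 below them. The log2FC was -0.29 ± 0.59 (SE, adjusted p = 0.772), and without MT replicate 2 it was 0.0933. The 8 endothelial markers summed to 25.2 CPM in MT replicate 1, with none of the 8 at 0, and to 3.94 CPM in MT replicate 2, with 7 of 8 at 0. They summed to 7.60 and 4.10 CPM in MB, with 4 and 6 of 8 at 0. The 8 blood cell markers summed to 21.9 CPM in MT replicate 1, 4.07 in MT replicate 2 and 1.84 and 1.21 in MB. The part of these cells in the values of Cd34 was not tested, and fewer cells of a type and less RNA per cell cannot be told apart in such bulk samples.

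Calcr (ENSMUSG00000023964, chr6:3685680-3764714, minus strand) encodes the calcitonin receptor, which is known to hold satellite cells in quiescence. It had 28 counts in MT replicate 1, or 2.09 CPM, and 0 counts in MT replicate 2 and in the 4 MB libraries. Calcr thus had 7.16 counts per kilobase in that library. The 3854 protein-coding genes whose counts came from this 1 cultured library had a median of 3.23 and a 90th percentile of 18.2. Of these genes, 69.4% had fewer counts per kilobase than Calcr. With counts in only 1 of the 6 cultured libraries, Calcr was not tested in the main fit and gets no fold here.

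Markers of other cell types moved with the comparison as well. The 8 fibroblast and fibro-adipogenic markers summed to 24073 and 14586 CPM in MT against 489 and 241 CPM in MB. The most abundant of them in MT were Col3a1 and Col1a1, both collagen genes. Col1a1 had 176154 and 13854 counts in MT and 8 and 4 in MB. Dcn, encoding the proteoglycan decorin, had 5484 and 867 counts in MT and 0 and 2 in MB. The 8 smooth muscle and pericyte markers summed to 1561 and 4139 CPM in MT and 486 and 302 CPM in MB, and the 6 Schwann cell markers to 7.07 and 1.14 CPM against 0.980 and 2.89 CPM. The part of such cells in the values of the members was not tested.

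**Figure D4:**
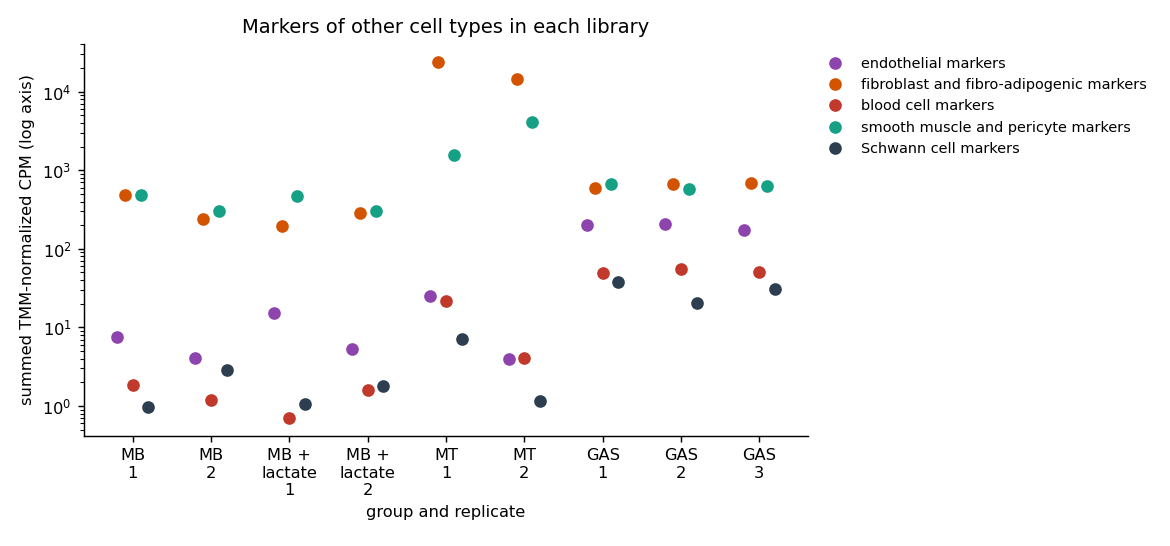
Summed TMM-normalized CPM (log axis) of 5 marker lists for other cell types in each library. The fibroblast list stood at 24073 and 14586 CPM in MT and at 682 CPM or less elsewhere, and the endothelial and blood cell lists were higher in MT replicate 1 than in MT replicate 2.

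Other genes of the satellite cell program are described next as 4 lists that do not include the members. Of 16 other transcription regulators of muscle stem cells and myoblasts, 12 were tested, 1 was higher and 1 lower in MT, and the median log2FC was -0.58. Pitx3, a homeodomain factor, had 847 and 236 counts in MB and 45 and 28 in MT and was lower (log2FC -4.30 ± 0.72 SE, adjusted p = 0.00308), with a log2FC of -3.08 without MB replicate 1 and -5.06 without MB replicate 2. Prox1, a homeobox factor known for slow fiber identity and satellite cell differentiation, had 3 and 9 counts in MB and 79 and 39 in MT and was higher (log2FC 2.91 ± 0.91 SE, adjusted p = 0.0485). The Prox1 call was lost without any one of the 4 libraries, with adjusted p from 0.0612 to 0.533, and with a replicate block (adjusted p = 0.0555). Myod1 and Myf5, the myogenic factors that MB express, were at 1184 and 705 CPM and at 27.6 and 31.7 CPM in MB. In MT, Myod1 was at 139 and 378 CPM (log2FC -1.93, adjusted p = 0.0528) and Myf5 at 21.4 and 7.25 CPM (log2FC -1.0, adjusted p = 0.280), and neither was called.

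Of 16 other surface proteins of satellite cells, 13 were tested, 4 were higher and 2 lower in MT, and the median log2FC was 1.11. Ncam1, an immunoglobulin-family adhesion molecule, was at 82.6 and 152 CPM in MB and at 996 and 996 CPM in MT (log2FC 3.11, adjusted p = 0.00399). Cd82, a tetraspanin (log2FC 1.95, adjusted p = 0.0235), and Dag1, encoding dystroglycan (log2FC 1.89, adjusted p = 0.0473), were higher too. Both of these calls were lost without MT replicate 2 (adjusted p = 0.148 and 0.192) and without MB replicate 2 (adjusted p = 0.0854 and 0.225). Met, the receptor of hepatocyte growth factor, was at 65.2 and 169 CPM in MB and 12.7 and 13.6 CPM in MT (log2FC -3.12, adjusted p = 0.00344), and its log2FC was -3.72 without MB replicate 1 and -2.47 without MB replicate 2. Sdc3, encoding syndecan-3, fell from 90.1 and 96.3 CPM to 25.8 and 19.1 CPM (log2FC -2.04, adjusted p = 0.0122), and that call was lost without MT replicate 1 (adjusted p = 0.0583) and without MT replicate 2 (adjusted p = 0.0623). Sdc4, of the same gene family, was not called, and the difference between these log2FC values was not tested.

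Of 22 ligands, receptors and partners of the members, 19 were tested, 5 were higher and 1 lower in MT, and the median log2FC was 0.0001. Col5a3, a chain of collagen V, which binds the calcitonin receptor in the satellite cell niche, had 24 and 6 counts in MB and 1462 and 1315 in MT (log2FC 6.18, adjusted p = 0.000371), and its log2FC was 7.5 without MB replicate 1 and 5.38 without MB replicate 2. Itga4, the integrin chain that binds VCAM1, had 2 and 0 counts in MB and 188 and 26 in MT. Its MT mean was 23.7-fold above the limit of 3 counts in MB, which leaves out the spread between libraries. The fitted log2FC was 6.04 with a 95% confidence interval from 3.15 to 8.93 (adjusted p = 0.0106), and it depends on the prior count. That call was lost without MT replicate 1 (adjusted p = 0.0538). Ramp1, whose product joins the calcitonin receptor at the membrane, had 6 and 1 counts in MB and 139 and 90 in MT (log2FC 4.60, adjusted p = 0.00847), and its log2FC was 6.31 without MB replicate 1 and 3.71 without MB replicate 2. Ackr3, the second receptor of CXCL12, was lower like Cxcr4, with 101 and 117 counts in MB and 13 and 18 in MT (log2FC -3.06, adjusted p = 0.0154). Its call was lost without MT replicate 1 (adjusted p = 0.111), and its log2FC was -3.85 without MT replicate 2. The ligand Cxcl12 itself was at 413 and 491 CPM in MB and 164 and 352 CPM in MT and was not called (log2FC -0.83, adjusted p = 0.276).

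Of 15 quiescence-associated genes of satellite cells, 12 were tested, 4 were higher and 0 lower in MT by edgeR, with 7 of the 12 at an unadjusted p under 0.05 and a median log2FC of 1.47. Heyl, a Notch target gene, had 6 and 0 counts in MB and 447 and 304 in MT (log2FC 6.54, adjusted p = 0.00150). Its log2FC was 5.43 without MB replicate 2, and without MB replicate 1 the MB library left was at 0, so that the fitted 11.5 depends on the prior count. Fbn1, encoding the matrix protein fibrillin-1, was at 18.4 and 7.71 CPM in MB and 365 and 308 CPM in MT (log2FC 4.67, adjusted p = 0.000758), with a log2FC of 5.41 without MB replicate 1 and 4.04 without MB replicate 2. Notch3, a Notch receptor that pericytes and smooth muscle cells also express, was at 3.31 and 0.121 CPM in MB and 20.8 and 48.3 CPM in MT (log2FC 4.24, adjusted p = 0.0166). Its log2FC was 7.97 without MB replicate 1, 3.21 without MB replicate 2 and 3.43 without MT replicate 2. Fbn1 is a gene of fibroblasts as well, and the rise of both lists of stromal markers in MT stands beside these values, and its part in them was not tested.

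The counts of these 4 lists depended on the test and on single libraries. With DESeq2, 2 regulators were higher and 2 lower, 6 surface proteins higher and 2 lower, 7 partners higher and 3 lower, and 5 quiescence-associated genes higher and 1 lower. Over all 12921 genes DESeq2 called 3021, against 2312 by edgeR. By edgeR with at least 10 counts in every library compared, 14 partners were tested, with 3 higher and 1 lower, and 8 quiescence-associated genes, with 2 higher and 0 lower. Over all genes, 1444 of 10648 were called with that filter. Of the transcription regulators, 0 were higher when any 1 library was left out, and 1 or 2 were lower. Of the surface proteins, 2 were higher and 2 lower without MB replicate 2, and 3 were higher and 1 lower without MT replicate 1. Of the partners, 7 were higher and 4 lower without MB replicate 2, and 5 were higher and 0 lower without MT replicate 1. Of the quiescence-associated genes, 3 were higher and 0 lower without either MT replicate 1 or MT replicate 2, and 4 were higher and 1 lower without MB replicate 2. In each of these fits the arm with 1 library was assumed to vary like the other. The number of calls over all genes differed between these fits as well, so the list counts are not read as changes of the lists.

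**Figure D5:**
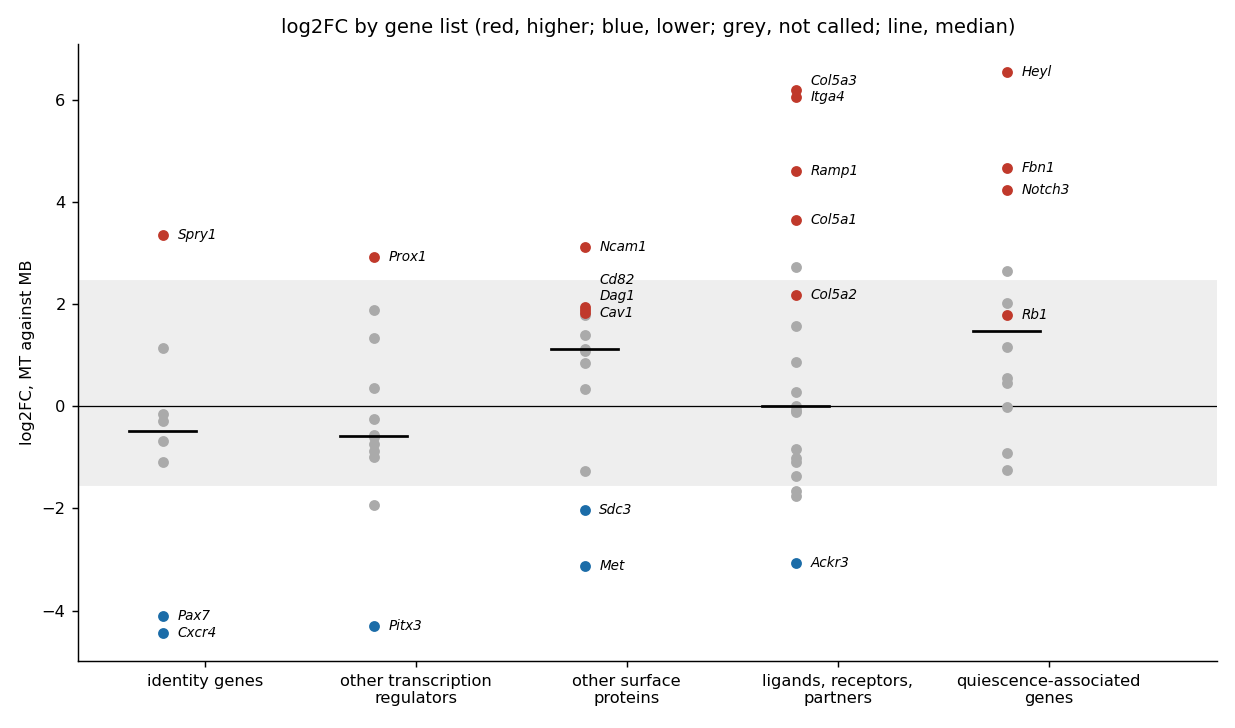
log2FC of MT against MB for each tested gene of the identity genes and of 4 further lists. Red points were called higher and blue points lower and are named, grey points were not called, black lines are list medians and the grey band spans the 10th to 90th percentile of all genes tested. The identity genes ran from -4.44 for Cxcr4 to 3.35 for Spry1 around a median of -0.48.

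The second comparison, lactate-treated against control MB, asks whether the identity genes respond to lactate. Of the 10 members 7 passed the filter on low counts, and none was called. No gene of the 11804 tested was called at a nominal p under 0.01 with an absolute log2FC over 0.5 (0%) or at an adjusted p under 0.05 (0%) by edgeR. At a nominal p under 0.05 there were 5 genes (0.0424%), of which 0 were members. A calibrated test would pass about 5% of genes at that threshold even if none differed. The fit without a block thus had little power to call any gene, and its 0 calls do not show that lactate had no effect. With DESeq2, 1 gene reached the nominal threshold of 0.01, 0 reached an adjusted p under 0.05 and 0 members were called. With 1 library left out, the edgeR count at the nominal threshold was 177 without MB replicate 2, 19 without MB replicate 1, 1 without treated replicate 1 and 2 without treated replicate 2, with 0 members among them. At an adjusted p under 0.05 it was 2 without MB replicate 1 and 0 without any other library. Among the 7 members the unadjusted p ran from 0.362 to 0.991 and each adjusted p was 1.00.

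Pax7 had 205 and 171 counts in control MB and 88 and 173 in treated MB, or 25.1 and 20.6 CPM against 15.5 and 30.8 CPM. The treated libraries lay on either side of the controls, and the log2FC was -0.00621 with a 95% confidence interval from -1.26 to 1.25. Cxcr4 was at 2 and 15 counts in treated MB and at 18 and 19 in control MB, with a log2FC of -0.58 and an interval from -3.06 to 1.89. Treated replicate 1 was low for both genes.

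Pax3 was at 8.26 and 10.7 CPM in treated and at 6.86 and 6.27 CPM in control MB, higher with no overlap (log2FC 0.50, interval from -0.73 to 1.72). Cd34 was at 39.9 and 33.4 CPM against 33.0 and 22.1 CPM, also higher with no overlap (log2FC 0.38, interval from -0.67 to 1.43). Vcam1, at 145 and 185 CPM against 187 and 224 CPM, was lower with no overlap (log2FC -0.35, interval from -1.29 to 0.60), and Sdc4, at 565 and 585 CPM against 816 and 620 CPM, was so too (log2FC -0.35, interval from -1.34 to 0.63). Cdh15 overlapped, at 211 and 205 CPM against 305 and 173 CPM (log2FC -0.24, interval from -1.27 to 0.80). Each of these intervals included 0 in the fit without the replicate number as a block. Treated and control libraries of the same number deviated together (correlation 0.705 over 11804 genes). The coefficient of variation fitted by edgeR was 0.455 without the block and 0.225 with it. Under the block 0 members were called too, so these differences were not called in either fit. The share of all genes with no overlap was not counted, so no overlap is not read as a difference here.

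Spry1 had 4 and 2 counts in treated MB and 18 and 8 in control MB, or 0.703 and 0.356 CPM against 2.21 and 0.964 CPM. It did not pass the filter in this comparison, and with all 6 cultured libraries in 1 fit it was tested and not called (log2FC -1.61, unadjusted p = 0.108, adjusted p = 1). Msc and Calcr had 0 counts in the 4 MB libraries. Of the 4 further lists, 11 other transcription regulators, 13 other surface proteins, 16 partners and 10 quiescence-associated genes were tested, and 0 were called by edgeR, with 0 at an unadjusted p under 0.05. This comparison shares its control libraries with that of MT against MB.

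The last question is the level of the identity genes in GAS, where satellite cells are a small share of the cells. No test was made between GAS and cultured cells, since poly(A) selection was used for the former and Smart-seq2 for the latter. Of the 10 members, 4 lay above 1 RPKM in the mean of the GAS libraries. In order these were Sdc4 at 9.73 ± 2.07, Cd34 at 6.57 ± 0.50, Cdh15 at 6.11 ± 0.89 and Spry1 at 4.87 ± 0.63 RPKM (SD, n = 3 for each). The range of Sdc4 lay apart from that of Cd34, the range of Cd34 overlapped that of Cdh15, the range of Cdh15 overlapped that of Spry1, and Spry1 lay apart from the next gene. Among all genes detected in GAS they stood at percentiles 85.4, 80.1, 79.0 and 75.3.

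Cxcr4 followed at 0.905 ± 0.170 RPKM (SD, n = 3), with 38, 26 and 32 counts. Pax7 was at 0.387 ± 0.036 RPKM (SD, n = 3) with 40, 48 and 45 counts, which placed it at percentile 36.9 of detected genes. The ranges of Pax7 and Vcam1 (0.320 ± 0.041 RPKM, SD, n = 3) overlapped, as did those of Vcam1 and Msc (0.201 ± 0.083) and of Msc and Calcr (0.187 ± 0.029). Msc had 10, 6 and 14 counts and Calcr 15, 12 and 16, so that both lay above the limit of 3 counts in each GAS library. Both were at 0 in MB, but those libraries had a lower depth and another protocol, and the difference was not tested. In GAS too, reads of Msc cannot be told apart from those of the antisense gene Gm9947. Pax3 had 0 counts in all 3 GAS libraries, which at this depth allows up to 0.156 CPM. The Cd34 level stood beside 175 to 205 CPM summed over the 8 endothelial markers and 49.5 to 55.2 CPM over the 8 blood cell markers in GAS, with 8 of 8 endothelial markers above 3 counts, and their part in it was not tested.

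In MB the order per length was Sdc4, Cdh15 at 73.6, Vcam1 at 23.2, Pax7 at 3.90, Cd34 at 3.77, Cxcr4 at 1.24, Pax3 at 1.06 and Spry1 at 0.545 RPKM, with Msc and Calcr at 0. Apart from Pax7 and Cd34, and from the pair at 0, neighbours in this order did not overlap. In MT it was Sdc4, Cdh15 at 69.3, Vcam1 at 10.9, Spry1 at 5.85, Cd34 at 3.04, Pax3 at 2.32, Calcr at 0.266, Pax7 at 0.230, Msc at 0.069 and Cxcr4 at 0.041 RPKM. The ranges of Spry1, Cd34 and Pax3 overlapped from neighbour to neighbour, as did those of Calcr and Pax7 and those of Msc and Cxcr4. As a share of the summed RPKM of the 10 members, Cd34 made up 21.5% to 23.7% in the GAS libraries and 1.01% and 0.914% in the MB libraries, and Sdc4 made up 29.2% to 36.5% in GAS and 71.6% and 73.5% in MB. Each share depends on the levels of all 10 members and on the protocol. Sdc4 itself was at 282 RPKM in MB and 9.73 RPKM in GAS, and Cd34 at 3.77 and 6.57 RPKM, with normalization set separately. Neither difference was tested.

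Across the 6 cultured libraries, the log2(CPM + 1) values of 5 genes followed those of Pax7 most closely by Pearson's r. These were Dhx38 (0.998), Btbd11 (0.998), Trib1 (0.997), Ints7 (0.996) and Ddx31 (0.995). The 6 points are 2 MT and 4 MB libraries, and 547 of 12920 genes had an r over 0.95. Among the members, r with Pax7 was 0.926 for Vcam1, 0.871 for Cxcr4, 0.826 for Sdc4, 0.481 for Cd34, 0.283 for Cdh15, -0.810 for Pax3 and -0.897 for Spry1. These values describe 6 libraries and carry no test.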

How the data were processed

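Gene-level read counts of 9 mouse libraries were used. The authors trimmed reads with Trim Galore 0.6.6, aligned them to mm10 with HISAT2 2.2.1 and counted them with featureCounts of Subread 2.0.1, and the deposited values are raw counts. The annotation release, strand setting and handling of multi-mapped reads are not given in the sources used here. Names, coordinates and exonic lengths came from GENCODE M21 (GRCm38, the same assembly).

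The comparisons of MT against MB and of MB with and without lactate were separate fits of 4 libraries each with edgeR 4.0.16 in R 4.3.3 (filterByExpr, TMM, quasi-likelihood test, Benjamini-Hochberg adjustment over all genes tested). Calls needed an adjusted p under 0.05, or for lactate also a nominal p under 0.01, and an absolute log2FC over 0.5. GAS and cultured cells were not compared by a test. DESeq2 1.42.0, RLE size factors, other filters, a replicate block, a joint fit, another prior count and leaving out each library were the alternatives. Where a group had 3 counts or fewer in each library, a fold is given against 3 counts per library and leaves out the spread between libraries. Figures used matplotlib 3.10.9 in Python 3.11.15. The scripts were tested on simulated counts drawn independently for each library. That run does not cover the shared deviations of libraries with the same number.

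The members and gene lists were chosen with earlier results of these data known. Genes named from the 4 further lists are up to 3 per direction with the largest absolute log2FC among called genes whose groups do not overlap; Myog, Ckm, Mki67 and Top2a served as checks. Myod1, Myf5, Cxcl12 and Dcn were named after their values were seen. Limits of 3 counts cover counting error only.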

Additional observations from a re-analysis of the deposited data

How the results depend on the processing

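Pax7 was lower in MT under each alternative run, with a log2FC from -4.55 to -3.85 when 1 library was left out. The number of members called in MT against MB was 3, and it was 1 (Pax7) with at least 10 counts in every library compared, since Cxcr4 and Spry1 then left the fit. It was 2 with no filter on low counts and with all 6 cultured libraries in 1 fit (Cxcr4, adjusted p = 0.552 and 0.0520). With 1 library left out, only Pax7 of these 3 kept its call in each fit. The log2FC then ran from 2.33 to 4.06 for Spry1 and from -7.22 to -3.90 for Cxcr4. Without MT replicate 2, Calcr entered the fit and was called higher, on its counts in MT replicate 1 alone. Over all genes, the calls were 2312, and 1444 with at least 10 counts in every library compared, 1232 without MT replicate 1 and 4921 without MT replicate 2. With 1 library left out, the log2FC of MT against MB ran from -1.57 to 0.51 for Cdh15 and from -1.22 to 0.0933 for Cd34. For lactate it ran from -0.63 to 0.44 for Pax7, from -0.58 to 0.31 for Cdh15 and from -2.69 to 0.26 for Cxcr4, and 0 members were called in these fits. With RLE size factors and with DESeq2 the Pax7 log2FC for lactate was 0.0287 and 0.0288 instead of -0.00621, as the median of all genes moved from -0.003 to 0.05. In GAS, 7 members lay above a threshold of 1 CPM with no length, against 4 above 1 RPKM, and 4 whichever GAS library was left out.

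With the replicate number as a block, 3 members were called in MT against MB, with a log2FC of -4.11 for Pax7, -4.61 for Cxcr4 and 3.27 for Spry1, and 0 for lactate. Of the other genes named, Prox1 and Dag1 lost their calls under the block (adjusted p = 0.0555 and 0.0527). Over all genes, 2271 were called in MT against MB under the block, and at the nominal threshold for lactate 13 under the block against 0 without it. Deviations of libraries with the same number correlated at -0.132 over 12921 genes for MT and MB and at 0.705 over 11804 genes for lactate-treated and control MB. With numbers crossed, an alternative chosen after seeing the data, 2059 genes and 2 members were called in MT against MB. The cause of these changes was not tested.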
